A study of Mus musculus with 6 samples.

Results

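The 10 genes described here carry the storage, release and re-uptake of calcium in a skeletal muscle fiber. They were chosen by name, as the rows of the deposited table whose gene symbol is *Cacna1s*, *Ryr1*, *Jph1*, *Atp2a1*, *Atp2a2*, *Sln*, *Pln*, *Casq1*, *Casq2* or *Pvalb*, and all 10 were found among the 24532 genes of the table. RNA was taken from the gastrocnemius (GAS) muscle of C57BL/6 mice, male by the methods and labelled 20 weeks old, in 2 groups of 3 libraries. The WT group is labelled Sirt6 flox/flox. The group labelled *Sirt6* KO carries the same floxed alleles together with *Myl1-Cre*, a Cre driver that is active mainly in type II (fast) fibers, so slow fibers and other cells of the muscle are less exposed to the recombinase. The question of the design was how the absence of *Sirt6*, a deacetylase of histones and other proteins, changes the RNA of the muscle.

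*Sirt6* itself goes against the labels. Its level, as TPM (an abundance scaled to transcript length and library size), was 3.90 in WT library 1, 2.93 in WT library 2 and 3.25 in WT library 3. The libraries labelled *Sirt6* KO held 9.62, 8.69 and 7.75 TPM in the order of their replicate numbers. The KO-labelled libraries were the higher ones, by 1.48 ± 0.17 (SE) on the log2 scale (adjusted p = 0.0113 in edgeR's quasi-likelihood test). A count over the whole gene does not tell the floxed exons from the others, and the cause was not tested. Every direction given for a gene therefore compares libraries by their label.

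In a muscle fiber, depolarization of the transverse tubule moves the voltage sensor of the L-type calcium channel, which opens the ryanodine receptor of the sarcoplasmic reticulum and lets stored calcium reach the myofilaments. The fiber relaxes as the SERCA pumps return the calcium to the lumen, where calsequestrin holds it, while parvalbumin binds calcium in the cytosol of fast fibers. Fast and slow fibers differ in the genes they use for the same task. *Atp2a1* and *Casq1* are the main forms of the pump and of calsequestrin in fast fibers. *Atp2a2* and *Casq2* are forms known from slow fibers and the heart.

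A sequence before a start site was at hand for 7 of the 10 genes on GRCm38.p6, and *Atp2a2*, *Sln* and *Jph1* were not matched. The 250 bases before the start of 4 genes are shown because they belong to the fast pump, the release channel and both calsequestrins, on which the comparisons below turn. *Atp2a1* is read from chr7:126463074-126463323 on the minus strand, *Ryr1* from chr7:29125152-29125401 on the minus strand, *Casq1* from chr1:172219896-172220145 on the minus strand and *Casq2* from chr3:102086165-102086414 on the plus strand. The start sites used for *Atp2a1* and *Ryr1* lie inside the gene spans given below, so these windows reach into those spans. Capitals mark each match to an E-box (CANNTG, bound by the MyoD family) or to a MEF2 box, on either strand. The MEF2 box was searched as YTAWWWWTAR, where Y is C or T, W is A or T and R is A or G.
Atp2a1: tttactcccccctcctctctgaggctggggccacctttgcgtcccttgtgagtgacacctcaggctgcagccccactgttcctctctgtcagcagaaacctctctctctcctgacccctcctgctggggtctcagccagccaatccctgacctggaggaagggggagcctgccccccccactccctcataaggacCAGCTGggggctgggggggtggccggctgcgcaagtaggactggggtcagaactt
Ryr1: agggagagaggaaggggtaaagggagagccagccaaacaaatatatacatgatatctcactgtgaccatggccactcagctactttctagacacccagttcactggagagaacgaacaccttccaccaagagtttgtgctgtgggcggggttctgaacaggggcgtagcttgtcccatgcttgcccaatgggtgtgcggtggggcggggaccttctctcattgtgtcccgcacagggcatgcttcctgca
Casq1: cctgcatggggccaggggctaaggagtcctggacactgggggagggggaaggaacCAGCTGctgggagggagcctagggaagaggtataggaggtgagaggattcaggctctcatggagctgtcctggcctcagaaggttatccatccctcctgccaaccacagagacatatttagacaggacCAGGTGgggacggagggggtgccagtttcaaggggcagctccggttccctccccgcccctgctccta
Casq2: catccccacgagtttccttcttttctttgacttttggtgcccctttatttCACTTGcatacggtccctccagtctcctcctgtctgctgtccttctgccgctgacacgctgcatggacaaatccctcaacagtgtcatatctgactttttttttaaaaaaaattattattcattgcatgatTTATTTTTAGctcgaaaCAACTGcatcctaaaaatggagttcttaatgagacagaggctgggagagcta
The window of *Atp2a1* held 1 E-box, 55 bases before the start. *Casq1* held E-boxes 195 and 67 bases before the start, and *Casq2* held them at 200 and 52 bases together with a MEF2 box at 69. The window of *Ryr1* held neither motif. *Pvalb* has a pair of start sites in the table, so the 7 matched genes gave 8 windows. An E-box was found in 6 of these 8 windows, against 66.2% of the 32851 windows of all genes, and a MEF2 box in 2 of 8, against 2.92%. The second MEF2 box was that of *Pvalb*. A cAMP response element (TGACGTCA, or its core TGACG) was found in 0 of the 8 windows, against 1.55% and 17.8% of all windows. A match is a string of letters and not a measured binding site, and no match says only that these letters are not in this window.

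Compared per length, in TPM, the 10 genes ranged from some of the most abundant RNAs of the muscle to some of the scarcest tested. *Atp2a1* ranked between 6 and 12 among all genes of a library and *Pvalb* between 11 and 12. *Casq1* followed at ranks 21 to 35, *Ryr1* at 74 to 251, *Cacna1s* at 219 to 344, *Jph1* at 524 to 707 and *Atp2a2* at 239 to 2714. *Sln*, *Casq2* and *Pln* were scarce, at ranks 5587 to 8346, 5398 to 9306 and 10700 to 13197. *Atp2a1*, *Pvalb* and *Casq1* together held 95.2% to 97.4% of the summed TPM of the 10 genes. The ranges of TPM over the 6 libraries overlapped for some neighbours in this order. *Atp2a1* overlapped with *Pvalb*, *Ryr1* with *Cacna1s*, *Atp2a2* with *Ryr1*, *Cacna1s* and *Jph1*, and *Casq2* with *Sln*. Compared within a library, *Ryr1* was above *Cacna1s* in each of the 6, at 1.32 to 2.10 times. *Atp2a1* was above *Pvalb* in all but WT library 3, where *Pvalb* stood at 1.02 times *Atp2a1*. *Pln* lay below every other gene of the set in every library. The 10 genes took 4.39%, 4.38% and 5.48% of all counts in WT libraries 1, 2 and 3, and 6.55%, 5.77% and 6.69% in the KO-labelled libraries, with *Atp2a1* alone at 2.84% to 3.55% against 4.06% to 4.81%.

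**Figure D1:**
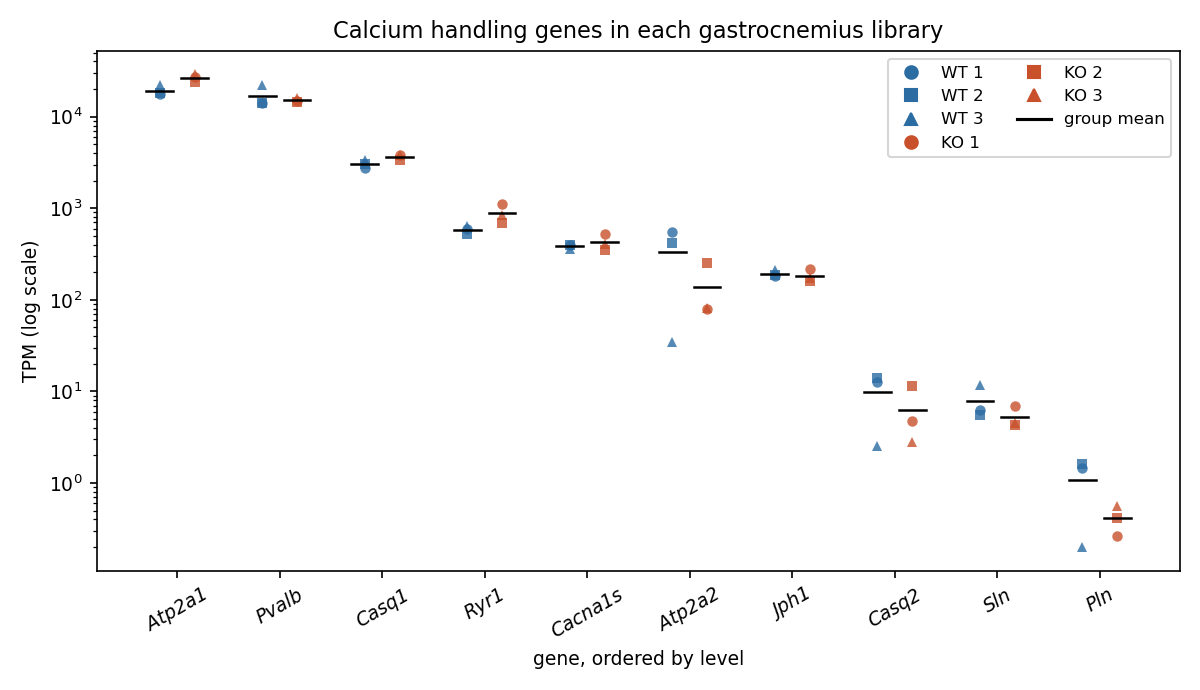
TPM of the 10 calcium handling genes in each library on a log axis, with genes ordered by level; blue symbols are WT, orange symbols are the libraries labelled *Sirt6* KO, the symbol shape gives the replicate number and the black line is the group mean. In TPM the 2 groups are apart for *Atp2a1*, *Ryr1* and *Casq1*, and the share of all genes apart in TPM was not computed. In normalized CPM only *Atp2a1* and *Ryr1* are apart, where 40.0% of all genes tested are. The widest spread within a group is that of *Atp2a2*, from 35.0 to 553 TPM among the WT libraries.

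Of the 10 genes, 0 passed an adjusted p of 0.05 in edgeR's quasi-likelihood test, in which 16.2% of the 13801 genes tested passed. All 10 had cleared the filter on low counts. *Ryr1* alone was under an unadjusted p of 0.05 (1 of 10, against 35.3% of all genes), and 5 log2 fold changes were above 0 and 5 below, with a median of -0.035 against -0.021 over all genes tested. DESeq2's Wald test called 2 of 10, *Ryr1* (adjusted p = 0.00900) and *Atp2a1* (adjusted p = 0.0193), both higher in the libraries labelled *Sirt6* KO, where that test called 25.6% of all genes, 12.5% of all genes being higher. The labels number the libraries of a group as replicates without saying that each is a separate animal, so the p-values measure the spread between these libraries. An exact permutation test of 3 libraries against 3 cannot give a p below 0.1.

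*Cacna1s* (NCBI gene 12292, chr1:136052806-136119822) encodes the pore-forming subunit and voltage sensor of the L-type channel. It stood at 396, 400 and 357 TPM in WT libraries 1 to 3 and at 529, 353 and 402 TPM in the KO-labelled libraries 1 to 3. KO-labelled libraries 1 and 3 were above the WT range, library 3 by a small margin, and KO-labelled library 2 was below it. *Cacna1s* had a log2 fold change of 0.26 ± 0.17 (SE), with a 95% interval of -0.14 to 0.66 (edgeR adjusted p = 0.305).

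*Ryr1* (NCBI gene 20190, chr7:29003340-29125179) is the release channel of the reticulum that the voltage sensor opens. The WT libraries held 590, 527 and 639 TPM and the KO-labelled libraries 1107, 690 and 845 TPM. Every KO-labelled library was above every WT library, and the mean was 585 ± 55.7 TPM in WT and 881 ± 211 TPM in the KO-labelled group (SD, n = 3 each). Groups did not overlap in normalized CPM for 2 of the 10 genes, *Ryr1* and *Atp2a1*, against 40.0% of all genes tested, and in both cases the KO-labelled libraries were the higher ones, against 20.3%. *Ryr1* had a log2 fold change of 0.68 ± 0.24 (SE; 95% interval 0.13 to 1.24, edgeR adjusted p = 0.0890; exact permutation p = 0.1, the smallest possible). Without WT library 3 it was 0.86 with an adjusted p of 0.0213.

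*Jph1* (NCBI gene 57339, chr1:16942104-17097922) encodes a junctophilin, which holds the reticulum against the transverse tubule. Its levels of 180, 186 and 214 TPM in WT and 215, 161 and 173 TPM in the KO-labelled libraries overlapped. *Jph1* had the narrowest spread of the set, with the highest library 1.34 times the lowest. Its log2 fold change was 0.01 ± 0.18 (SE), and the 95% interval of -0.41 to 0.44 left room for a change in either direction (edgeR adjusted p = 0.967).

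*Atp2a1* (NCBI gene 11937, chr7:126445858-126463103) encodes SERCA1, the calcium pump of fast fibers. It was measured at 17821, 17938 and 21928 TPM in WT and at 27261, 23967 and 28935 TPM in the KO-labelled libraries. The lowest KO-labelled library was above the highest WT library. The group means were 19229 ± 2338 and 26721 ± 2528 TPM (SD, n = 3 each). On the log2 scale the difference was 0.57 ± 0.28 (SE; 95% interval -0.09 to 1.22), which did not pass after adjustment (edgeR adjusted p = 0.190; exact permutation p = 0.1, the smallest possible). The call again turned on WT library 3, the WT library with the most *Atp2a1*: without it the log2 fold change was 0.78 with an adjusted p of 0.0146. The span of *Atp2a1* overlaps that of *Rabep2* on the opposite strand by 3388 bases, but *Rabep2* had 1046 counts over the 6 libraries in all.

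*Atp2a2* (NCBI gene 11938, chr5:122453513-122502225) encodes SERCA2, the pump of slow fibers and the heart. Its levels were 553, 415 and 35.0 TPM in WT libraries 1 to 3 and 79.99, 254 and 81.9 TPM in the KO-labelled libraries 1 to 3. The highest and the lowest of the 6 values were both WT libraries, so the difference between the groups was smaller than the spread within WT. The highest library was 15.8 times the lowest, and 1.22% of 13456 genes tested with a TPM above 0 in every library were at least as wide, with a median ratio of 1.82. For *Atp2a2* the log2 fold change was -1.08 ± 0.85 (SE; 95% interval -3.06 to 0.91, edgeR adjusted p = 0.396; exact permutation p = 0.8). Leaving out 1 library at a time moved it from -1.86 without KO-labelled library 2 to -0.54 without WT library 1. Without WT library 3 it was -1.60 with an adjusted p of 0.0644. In a piece of muscle, fewer slow fibers and less *Atp2a2* RNA per slow fiber cannot be told apart.

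*Sln* (NCBI gene 66402, chr9:53850251-53853849) and *Pln* (NCBI gene 18821, chr10:53337686-53345999) encode sarcolipin and phospholamban, small membrane proteins that slow the pumps. *Sln* stood at 6.30, 5.58 and 11.7 TPM in WT and at 6.92, 4.31 and 4.57 TPM in the KO-labelled libraries. WT library 3 was the highest, and the groups overlapped. The log2 fold change of *Sln* was -0.52 ± 0.40 (SE; edgeR adjusted p = 0.384), and it turned to 0.026 without WT library 3. *Pln* stood at 1.44, 1.63 and 0.201 TPM in WT and at 0.263, 0.420 and 0.562 TPM in the KO-labelled libraries, from 72, 81 and 15 counts against 19, 32 and 38 counts. WT libraries 1 and 2 were above all others and WT library 3 was the lowest of the 6. The log2 fold change of *Pln* was -1.14 ± 0.66 (SE; 95% interval -2.68 to 0.40, edgeR adjusted p = 0.255), and without WT library 3 it was -1.62 with an adjusted p of 0.0223. *Pln* is an uncertain measurement: its span lies wholly within that of *Cep85l* on the opposite strand, *Cep85l* had 7365 counts over the 6 libraries, and the sources do not say whether the counting used strand. The spans of *Ryr1*, *Casq1*, *Cacna1s* and *Jph1* also overlap transcripts annotated as antisense in GENCODE, whose reads could not be told apart from theirs without strand.

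*Casq1* (NCBI gene 12372, chr1:172209894-172219895) encodes the main calsequestrin of fast fibers, a calcium buffer of the lumen. The WT libraries held 2772, 3011 and 3336 TPM and the KO-labelled libraries 3807, 3392 and 3767 TPM. The groups did not overlap in TPM, with means of 3040 ± 283 and 3655 ± 229 TPM (SD, n = 3 each), but they did overlap in normalized CPM. *Casq1* had a log2 fold change of 0.36 ± 0.20 (SE; 95% interval -0.09 to 0.82, edgeR adjusted p = 0.226), and without WT library 3 it was 0.54 with an adjusted p of 0.0208.

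*Casq2* (NCBI gene 12373, chr3:102086415-102146514) encodes the other calsequestrin, which slow fibers and the heart use. It stood at 12.6, 14.2 and 2.52 TPM in WT libraries 1 to 3 and at 4.72, 11.4 and 2.81 TPM in the KO-labelled libraries 1 to 3. As with *Atp2a2*, WT libraries 1 and 2 and KO-labelled library 2 were the high ones, and both groups held low libraries. Its log2 fold change was -0.44 ± 0.65 (SE; 95% interval -1.97 to 1.08, edgeR adjusted p = 0.663), and leaving out 1 library at a time moved it from -1.20 without KO-labelled library 2 to -0.056 without WT library 2.

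*Pvalb* (NCBI gene 19293, chr15:78191112-78206400) encodes parvalbumin, the soluble calcium buffer of fast fibers. It was measured at 13940, 14027 and 22426 TPM in WT and at 14857, 14354 and 15904 TPM in the KO-labelled libraries. WT library 3 was above the other 5 libraries, which lay close together. Its log2 fold change was -0.08 ± 0.30 (SE; 95% interval -0.78 to 0.61, edgeR adjusted p = 0.866), and it was 0.31 without WT library 3, still short of the threshold (adjusted p = 0.0984).

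**Figure D2:**
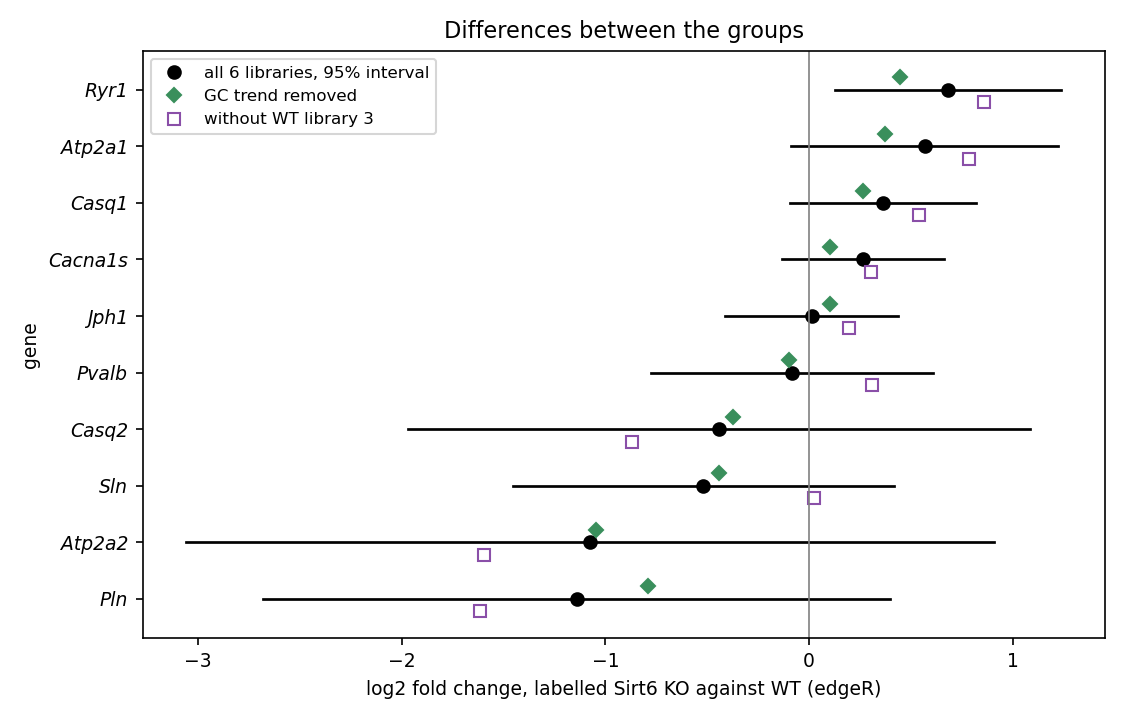
Log2 fold change of each of the 10 genes, libraries labelled *Sirt6* KO against WT, from edgeR; black points with bars are the estimate from all 6 libraries with its 95% interval, green diamonds the estimate after a correction for GC content and open squares the estimate without WT library 3. The interval of *Ryr1* alone lies wholly above 0, the widest is that of *Atp2a2*, and the open squares of *Pvalb* and *Sln* lie on the other side of 0.

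Leaving out WT library 3 brought 4 of the 10 genes past the threshold, *Ryr1*, *Atp2a1* and *Casq1* higher and *Pln* lower in the libraries labelled *Sirt6* KO, while the same step raised the share of all genes called to 32.5% (16.7% higher and 15.7% lower). Leaving out any other library left 0 of 10, where 3.15% (WT 1), 1.78% (WT 2), 0.0568% (KO-labelled 1), 6.21% (KO-labelled 2) and 0.0921% (KO-labelled 3) of all genes were called. Fold changes over all genes ran with the GC content of the transcript (Spearman correlation 0.33 over 13711 genes, as a description), and *Ryr1* at 58.0% and *Atp2a1* at 55.3% GC had the highest GC content of the set. After a correction for this trend the log2 fold change was 0.45 for *Ryr1* (edgeR adjusted p = 0.255) and 0.37 for *Atp2a1* (adjusted p = 0.403), and 0 of the 10 genes passed where 6.97% of all genes did. Over all 16 alternatives the adjusted p lay between 0.00900 and 0.255 for *Ryr1*, 0.0146 and 0.427 for *Atp2a1*, 0.0208 and 0.460 for *Casq1*, 0.0223 and 0.655 for *Pln*, 0.0644 and 0.742 for *Atp2a2*, and 0.0984 and 0.979 for *Pvalb*. The summed TPM of 6 skeletal muscle markers (*Ckm*, *Acta1*, *Mb*, *Des*, *Ttn* and *Myh4*) was also higher in every KO-labelled library, at 121507 to 135184 against 97143 to 113915, with all 6 above 0 in every library and 0 of 6 called. Most of this sum was *Acta1*, *Ckm* and *Myh4*. *Ttn* went the other way, at 258 to 288 TPM in the KO-labelled libraries against 333 to 366 in WT, and *Mb* stood at 8886, 10113 and 1500 TPM in WT against 1204, 4695 and 1558 TPM. The 7 fast fiber markers were *Myh4*, *Myh1*, *Tnni2*, *Tnnc2*, *Tnnt3*, *Mylpf* and *Actn3*. Their summed TPM overlapped between the groups, at 130535 to 165878 in WT and 159068 to 177901 in the KO-labelled libraries, with 0 of 7 called. These markers did not move together. *Tnni2*, *Tnnc2* and *Mylpf* were higher in every KO-labelled library than in any WT library, while *Myh4*, *Actn3* and *Tnnt3* overlapped. *Myh1* ran differently, at 3497, 3805 and 773 TPM in WT libraries 1 to 3 and 1031, 1491 and 988 TPM in the KO-labelled libraries. The part of the muscle and fast fiber markers in the values of *Atp2a1*, *Ryr1* and *Casq1* was not tested.

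The balance between the genes of a pair was computed within each library from TPM, for the SERCA pumps, the calsequestrins, and *Sln* with *Pln*. *Atp2a2* made up 3.01%, 2.26% and 0.159% of the summed TPM of *Atp2a1* and *Atp2a2* in WT libraries 1, 2 and 3, and 0.293%, 1.05% and 0.282% in the KO-labelled libraries. SERCA1 RNA was thus the large majority in every library. The mean share of *Atp2a2* was 1.81% ± 1.48 in WT and 0.541% ± 0.440 in the KO-labelled group (SD, n = 3 each; exact permutation p = 0.4, two-sided). *Casq2* made up 0.452%, 0.468% and 0.0755% of the calsequestrin TPM in WT and 0.124%, 0.336% and 0.0746% in the KO-labelled libraries (exact permutation p = 0.3, two-sided). *Sln* held 81.4%, 77.4% and 98.3% of the summed TPM of *Sln* and *Pln* in WT and 96.3%, 91.1% and 89.1% in the KO-labelled libraries (exact permutation p = 0.4, two-sided). For each of the 3 pairs the spread within WT was larger than the difference between the group means.

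The 3 genes with the widest spread, *Atp2a2*, *Pln* and *Casq2*, were set beside the markers of slow fibers. The summed TPM of 6 slow fiber markers (*Myh7*, *Tnni1*, *Tnnc1*, *Tnnt1*, *Myl2* and *Myl3*) was 4566, 3616 and 79.5 in WT libraries 1, 2 and 3 and 265, 2222 and 431 in the KO-labelled libraries, and 0 of the 6 were called. The libraries fell in the same order for these markers and for *Atp2a2*: WT 1, WT 2, KO-labelled 2, KO-labelled 3, KO-labelled 1 and WT 3. *Casq2* and *Pln* differed from this order in a few places, but for them too WT libraries 1 and 2 were the highest. Set against the markers, *Atp2a2* stood at 12.1, 11.5 and 44.0 TPM per 100 TPM of slow fiber markers in WT and at 30.1, 11.4 and 19.0 in the KO-labelled libraries. The groups overlapped on this measure too, with the highest value in WT library 3 and the lowest in KO-labelled library 2. WT library 3, the poorest in slow markers, was also the lowest of the 6 libraries for 8 of 12 lists of cell type markers. Smooth muscle markers summed to 121, 141 and 63.7 TPM in WT libraries 1 to 3 and 76.3 to 84.5 TPM in the KO-labelled libraries. Endothelium markers summed to 133, 143 and 65.4 TPM in WT and 74.2 to 79.5 TPM in the KO-labelled libraries. For both lists WT library 3 lay closer to the KO-labelled libraries than to WT libraries 1 and 2. Single markers could differ: *Tagln* and *Pecam1* were lower in KO-labelled library 3 than in WT library 3. *Atp2a2*, *Casq2* and *Pln* are also known from cardiac muscle, whose 4 markers (*Myh6*, *Tnnt2*, *Nppa* and *Actc1*) summed to 185, 449 and 76.2 TPM in WT and 61.1, 549 and 1324 TPM in the KO-labelled libraries, with *Nppa* at 0 in all. Nearly all of this sum was *Actc1*. *Myh6* ran differently, at 24.6, 19.2 and 0.379 TPM in WT and 1.98, 13.8 and 2.99 TPM in the KO-labelled libraries, which is the order of the slow fiber markers and of *Atp2a2*. What the makeup of the tissue sample contributes to the values of these 3 genes was not tested.

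**Figure D3:**
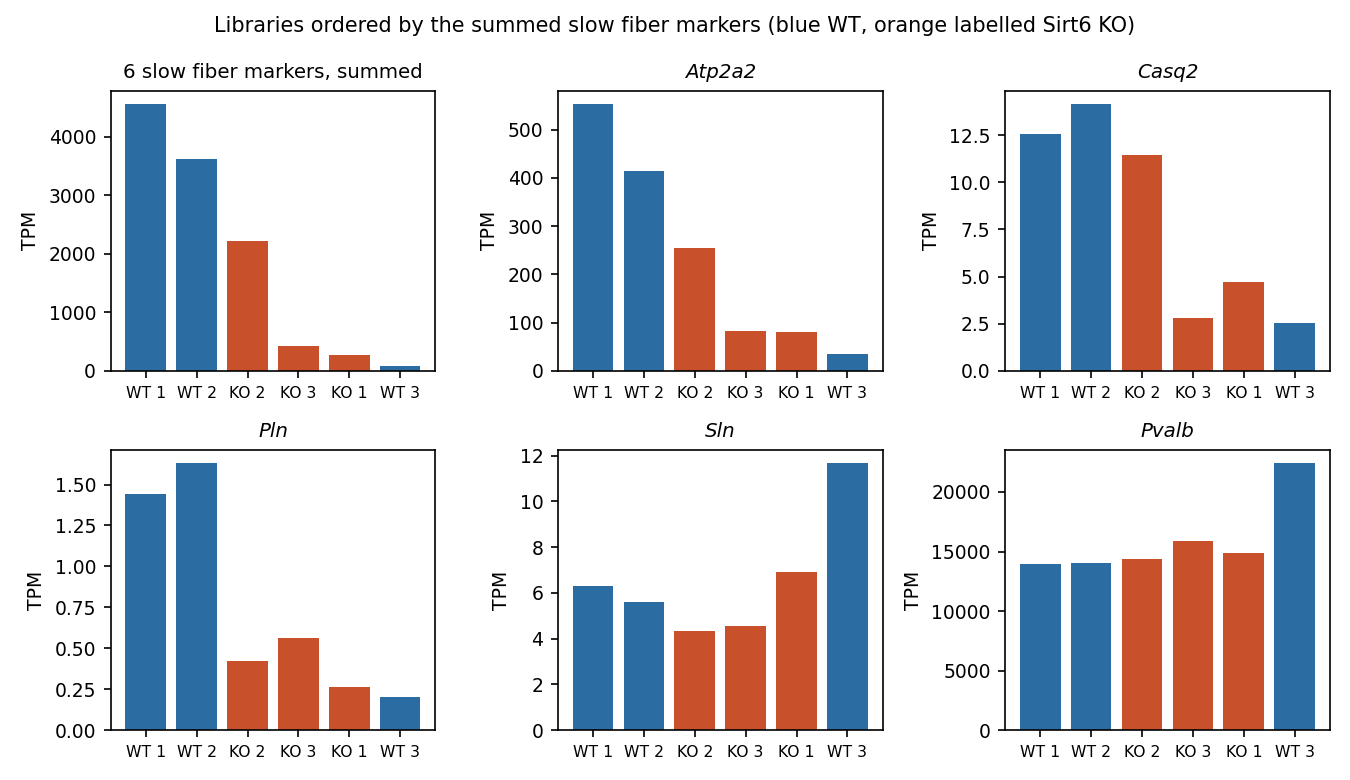
TPM per library (bars starting at 0, blue WT, orange labelled *Sirt6* KO) of the 6 slow fiber markers summed and of *Atp2a2*, *Casq2*, *Pln*, *Sln* and *Pvalb*, with the libraries in the order of the summed markers in every panel. *Atp2a2* falls from left to right in the same order as the markers, and *Sln* and *Pvalb* are highest in WT 3, the library with the least slow marker RNA.

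Genes whose pattern over the 6 libraries was nearest to a member's were found by the root mean square difference of centred log2 CPM among 7238 genes with a mean of at least 10 CPM, for the 6 members that spanned more than 1 on that scale. For *Atp2a2* they were *Fxyd6* (0.32), *Ldhb* (0.32) and *Myom3* (0.32), for *Casq2* they were *Lmod2* (0.20), *Pla2g12a* (0.22) and *Lmcd1* (0.22), and for *Pln* they were *Fgf1* (0.34), *Ces1d* (0.36) and *Myh1* (0.36). For *Ryr1* they were *Fam20c* (0.06), *5730409E04Rik* (0.07) and *Nomo1* (0.07). The difference is not scaled to the span of the member, so it is not compared between members. That span was 1.18 for *Ryr1*, 3.67 for *Atp2a2*, 2.25 for *Casq2* and 2.56 for *Pln*. *Pvalb* was nearest to *Rps20* (0.07), *Myl1* (0.09) and *Cox16* (0.09), and *Sln* to *Styx* (0.13), *Wdr44* (0.16) and *Ppp1r14c* (0.17). *Myl1* is the gene whose promoter drives the Cre in the KO-labelled animals, and its own log2 fold change was -0.05.

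The other genes of calcium handling were taken from a list of 48, of which 46 were in the table (*Strit1* and *Arln* were not matched) and 45 were tested. The list was chosen with earlier results of these data known, so its shares and median are a description and no independent comparison. Of the 45, 7 were called, or 15.6%, against 16.2% of all genes tested. By direction, 6 rose and 1 fell in the libraries labelled *Sirt6* KO, or 13.3% and 2.22%, where 7.85% of all genes tested rose and 8.39% fell. The groups did not overlap in normalized CPM for 40.0% of the list, against 40.0% of all genes tested. The median log2 fold change of the list was 0.22 against -0.021 for all genes. By the unadjusted p, 15 of the 45 were under 0.05, against 35.3% of all genes. After the correction for GC content 2 of the 45 passed, *Hrc* and *Tmem38b* (0.58, edgeR adjusted p = 0.0356; 0.0272 to 0.292 over its alternatives; named after its values were seen), where 6.97% of all genes passed. Without 1 library the list held 19 calls (WT 3), 4 (KO-labelled 2), 2 (WT 1) or 0 (WT 2, KO-labelled 1 and KO-labelled 3), where the same fits called 32.5%, 6.21%, 3.15%, 1.78%, 0.0568% and 0.0921% of all genes.

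Around the voltage sensor, 1 of 12 genes rose, where 7.85% of all genes tested did. *Cacnb1*, the beta subunit that partners *Cacna1s*, stood at 165, 171 and 172 TPM in WT and at 318, 264 and 309 TPM in the KO-labelled libraries, without overlap, a log2 fold change of 0.83 ± 0.13 (SE; edgeR adjusted p = 0.0151). *Cacng1*, the gamma subunit, had group means of 412 and 865 TPM and just missed the threshold (log2 fold change 1.14 ± 0.32, edgeR adjusted p = 0.0501). The other members of this group above 100 TPM did not pass: *Trdn*, which anchors calsequestrin at the junction, had means of 941 in WT and 707 TPM in the KO-labelled group, *Bin1* 624 and 673, *Jsrp1* 566 and 474, *Jph2* 300 and 399, *Stac3* 266 and 317, *Asph* 205 and 188, *Cacna2d1* 204 and 149, and *Fkbp1a* 160 and 149 TPM.

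In the lumen and membrane of the reticulum, 1 of 6 genes rose, against 7.85% of all genes tested. *Hrc*, a luminal protein rich in histidine that binds calcium beside calsequestrin, stood at 860, 878 and 834 TPM in WT and at 1440, 1379 and 1437 TPM in the KO-labelled libraries. The spread within each group was small beside the gap between them, with means of 857 ± 22.2 and 1419 ± 34.3 TPM (SD, n = 3 each) and a log2 fold change of 0.84 ± 0.14 (SE; edgeR adjusted p = 0.0163). *Hrc* was the one gene of the 7 still called after the GC correction (0.69, edgeR adjusted p = 0.0379; 2.32e-10 to 0.0834 over its alternatives). *Tmem38a*, a potassium channel of the reticulum, had means of 1359 and 1436 TPM, *Srl* 873 and 818, *Sypl2* 242 and 223 and *Calr* 159 and 171 TPM, and none of these passed. *Mrln*, a micropeptide that inhibits SERCA, had means of 221 and 228 TPM and did not pass either.

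Among genes of store-operated entry, *Orai1*, the channel of the surface membrane that opens when the store empties, rose from 26.3 ± 2.70 to 42.9 ± 2.12 TPM (SD, n = 3 each; log2 fold change 0.81 ± 0.14, edgeR adjusted p = 0.0170). *Stim1*, the calcium sensor of the reticulum that opens it, had means of 133 and 139 TPM and did not pass. Among cytosolic sensors and kinases, 2 of 8 rose: *Calm3*, one of the calmodulin genes, from 283 ± 64.3 to 542 ± 99.5 TPM (log2 fold change 1.02 ± 0.25, edgeR adjusted p = 0.0370), and *Camk2g*, a calmodulin-dependent kinase, from 97.8 ± 3.89 to 132 ± 18.7 TPM (log2 fold change 0.54 ± 0.14, edgeR adjusted p = 0.0403). *Calm2* (258 and 297 TPM), another calmodulin gene, did not pass, nor did *S100a1* (276 and 302 TPM) or *Camk2a* (205 and 286 TPM). *Smdt1*, a subunit of the mitochondrial calcium uniporter, rose from 141 ± 10.8 to 196 ± 3.01 TPM (log2 fold change 0.59 ± 0.12, edgeR adjusted p = 0.0230), as 1 of 6 genes of mitochondrial uptake. *Atp2b1*, a calcium pump of the surface membrane, was the one gene that fell, from 30.5 ± 2.55 to 17.9 ± 0.844 TPM (log2 fold change -0.65 ± 0.10, edgeR adjusted p = 0.0143), as 1 of 4 genes of extrusion. Of the release channels other than *Ryr1*, 0 of 4 tested passed, and *Ryr2* was under the filter on low counts. Beside these small counts per role, 7.85% of all genes tested rose and 8.39% fell.

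**Figure D4:**
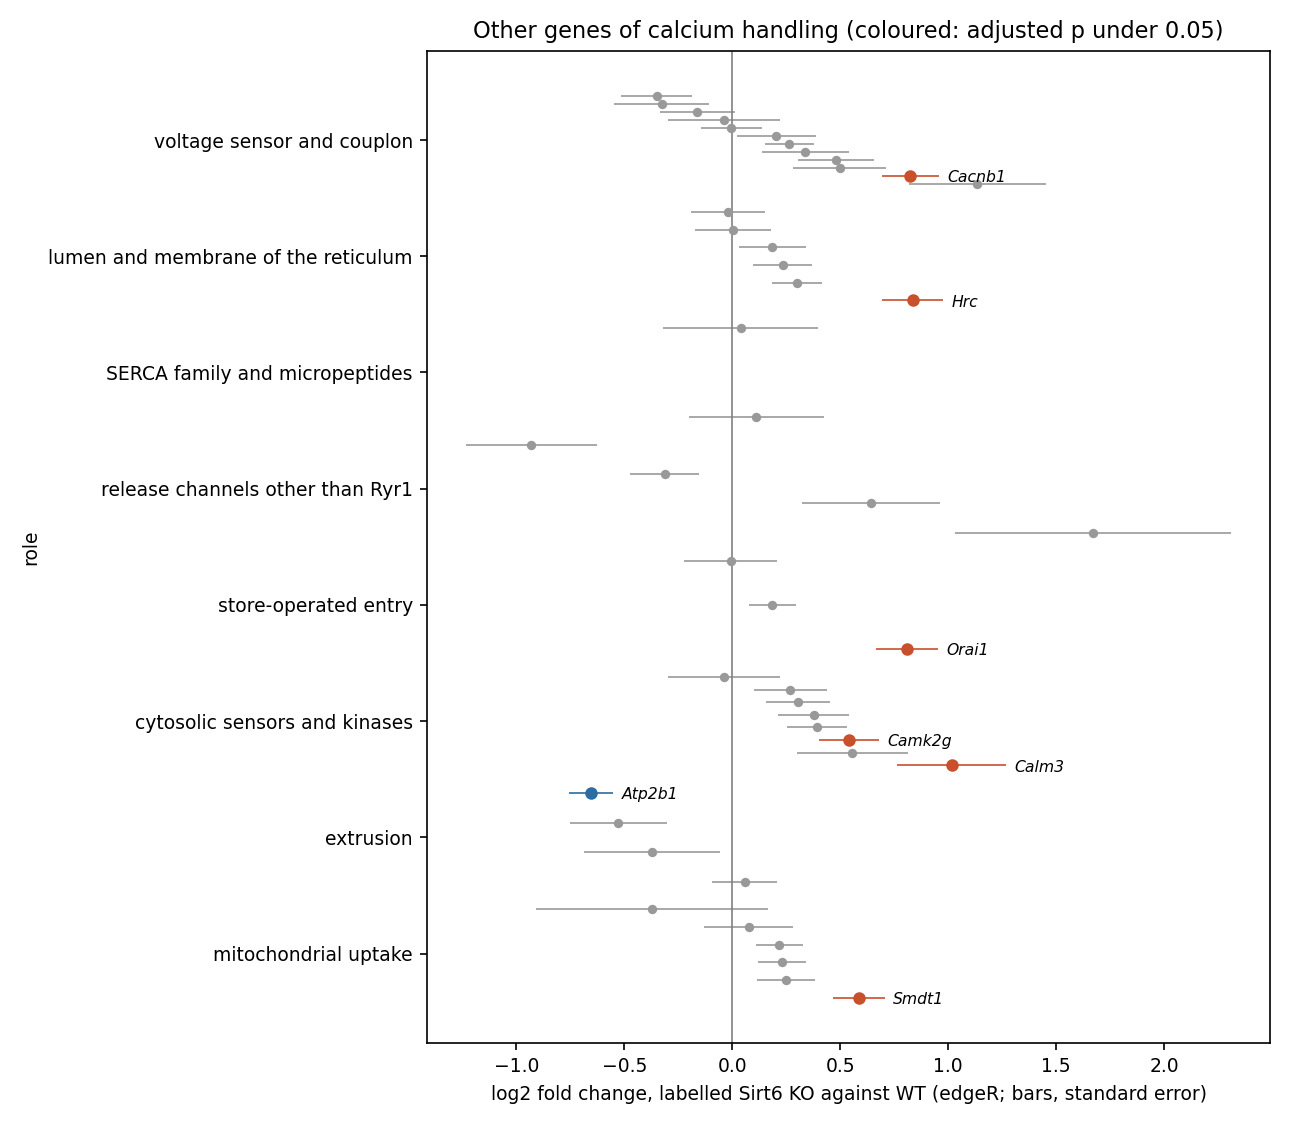
Log2 fold change (libraries labelled *Sirt6* KO against WT, edgeR, bars are standard errors) of the 45 tested genes of the calcium handling list, grouped by role; coloured points passed an adjusted p of 0.05 and are named, and grey points did not. The 6 genes that rose lie in 5 of the 8 roles, and the one that fell, *Atp2b1*, is a pump of the surface membrane.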

How the data were processed

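RNA-seq of GAS muscle from 3 WT libraries and 3 libraries labelled *Sirt6* KO was used, with paired-end reads of 100 bases. The read counts the authors deposited are whole numbers per gene without normalization between libraries, and the deposited FPKM and TPM values also take account of gene length and depth. Per the submitters' processing notes, tools included HISAT2 2.1.0, Bowtie2 2.3.4.1 and StringTie 2.1.3b on mm10, while the reporting summary names STAR. The labels name a stranded kit and the methods another, and strand use in counting is not given in the sources used here.

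Counts were tested in R 4.3.3 with edgeR 4.0.16 (filterByExpr, TMM, quasi-likelihood test, Benjamini-Hochberg adjustment over 13801 genes at 0.05). Fold changes and intervals come from this fit and levels from TPM. Normalized CPM are counts scaled by TMM. Totals were 44845763 to 63016899 counts, 1 count was worth 0.0165 to 0.0212 CPM, and the biological coefficient of variation was 24.1%. Libraries of one group differed by more than sampling noise. Exact permutation tests were two-sided, on log2 CPM or on the share itself.

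Alternatives were DESeq2 1.42.0, its size factors in edgeR, no filter, at least 10 counts in every library, limma 3.58.1 after quantile normalization of FPKM on the log2 scale with a pseudocount of 1 or 0.1, a replicate block, a GC correction (lowess per library, span 0.3, longest GENCODE M21 transcript), each library left out in turn and, chosen after seeing the data, total counts in place of TMM. Scripts were tested on simulated data.

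The 10 genes, the list of 48 and the marker lists were chosen with earlier results of these data known. Genes named are *Sirt6*, the 10 genes, list genes called without overlap or above 100 TPM in a group mean, and for each of the 10 that spanned more than 1 in log2 CPM the 3 genes nearest in pattern. Marker genes, list genes near the threshold or under the filter and genes whose spans overlap one of the 10 are also named, the latter after their values were seen. The values of 1 list gene are not reported here. Coordinates and sequences are from RefSeq on GRCm38.p6, which has the same coordinates as mm10.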

Additional observations from a re-analysis of the deposited data

How the results depend on the processing

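For all genes, 2242 were called, against 3531 by DESeq2, 956 with the GC correction, 568 with the replicate block and GC correction together, and 8 to 4582 with 1 library left out, the highest without WT library 3 and the lowest without KO-labelled library 1. Of the 10 calcium handling genes, 0 were called, against 2 by DESeq2 and 0 to 4 with 1 library left out. Of the 45 listed genes, 7 were called, against 2 with the GC correction, 0 with the replicate block and GC correction together, and 0 to 19 with 1 library left out. The replicate block alone left 1922 genes, 0 of the 10 and 7 of the list. The sample descriptions carry other numbers, which differ between the WT and KO-labelled libraries of the same replicate number. The labels therefore give no pairing, and the replicate block is only an alternative fit. Same-numbered libraries did not deviate together in every pair (correlations of -0.11, 0.26 and 0.16). Not every library correlated best with its own number, so the numbers were not used to pair them.

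Direction held in 16 of 16 alternatives for *Atp2a1*, *Atp2a2*, *Ryr1*, *Casq1*, *Casq2*, *Pln* and *Cacna1s*, and in 15 of 16 for *Sln* (-0.74 to 0.026 with 1 library left out) and *Pvalb* (-0.25 to 0.31), both turning without WT library 3. *Jph1* kept it in 12 of 16, turning to -0.027 with total counts and, within a range of -0.088 to 0.20, without WT library 1, WT library 2 or KO-labelled library 1. The log2 fold change of *Atp2a2* was -1.08 in edgeR and -0.63 or -0.62 in limma. With 1 library left out, the difference in share, KO-labelled minus WT, ran from -2.09 to -0.669 percentage points for *Atp2a2* (-1.27 with all), -0.282 to -0.0856 for *Casq2* (-0.154 with all) and 2.33 to 12.8 for *Sln* (6.49 with all), the extremes being without WT library 3 and without WT library 1 or 2. These moves were smaller than the SD over the WT libraries but, for *Atp2a2* and *Sln*, larger than that over the KO-labelled libraries. *Pln*, with 15 to 81 counts per library, and *Sln*, with 61 to 181, rested on the fewest counts. The causes were not tested.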

Other observations

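Ratios of TPM within a library, chosen after their values were seen, are given as a description. *Ryr1* stood at 1.49, 1.32 and 1.79 times *Cacna1s* in WT libraries 1 to 3 and at 2.09, 1.95 and 2.10 times in the KO-labelled libraries, so the release channel was more abundant relative to its voltage sensor in every KO-labelled library than in any WT library. *Pvalb* stood at 0.782, 0.782 and 1.02 times *Atp2a1* in WT and at 0.545, 0.599 and 0.550 times in the KO-labelled libraries, so the cytosolic buffer was less abundant relative to the pump in each of them. *Ryr1* stood at 3.28, 2.83 and 2.99 times *Jph1* in WT and at 5.15, 4.30 and 4.88 times in the KO-labelled libraries. *Hrc* stood at 0.310, 0.291 and 0.250 times *Casq1* in WT and at 0.378, 0.407 and 0.381 times in the KO-labelled libraries. *Atp2a1* against *Ryr1* overlapped, at 30.2 to 34.3 times in WT and 24.6 to 34.7 times in the KO-labelled libraries. Of all 661825 pairs of genes with a mean above 100 TPM, 45.3% had ratios whose groups did not overlap, so such a pattern is common in these libraries.

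The satellite cell markers *Pax7*, *Myf5* and *Cdh15* summed to 13.9 to 16.8 TPM in WT and 23.4 to 33.4 TPM in the KO-labelled libraries. All were called (3 of 3), where 16.2% of all genes tested were. Most of this sum was *Cdh15*. *Myf5* stood at 0.965 to 1.84 TPM in WT and 2.61 to 3.91 TPM in the KO-labelled libraries. *Pax7* was scarcer still, at 0.234 to 0.247 against 0.477 to 0.610 TPM. The erythroid markers summed to 121 to 1014 TPM in WT and 239 to 503 TPM in the KO-labelled libraries, with 0 of 4 called.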
